A study of Mus musculus with 20 samples.

Results

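The effect of CD8+ T cell depletion was examined in tumors treated with APG-157 plus a CTLA-4 antibody, using 4 of the 20 tumor RNA-seq libraries of the series, chosen by their treatment labels. The 2 libraries whose label adds anti-CD8 to the pair of agents (the depleted libraries, replicates A and B) were compared with the 2 labelled APG-157-plus-anti-CTLA-4 (the combination libraries, replicates A and B). All tumors were formed by SCCVII, a murine squamous carcinoma line, under the skin of immunocompetent C3H/HeOuJ mice. APG-157, a turmeric-derived botanical drug that contains curcumin and was mixed into the food, and an intraperitoneal anti-CTLA-4 antibody were common to both groups. The depleted mice also received an intraperitoneal anti-CD8 antibody. As context, the same antibody without the combination was measured in 2 libraries (anti-CD8 alone) against 2 control libraries. The paper describes CD8 depletion as an experiment of its own, with its own control and combination mice, beside the main treatment experiment. The labels do not tell which experiment gave the combination and control libraries. Depletion may therefore be confounded with the experiment. Ages were not given in the sources used here, and nothing in the labels tells if replicates A and B were different tumors. The p-values therefore measure the spread between libraries, which may be technical.

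CD8+ T cells recognize tumor antigen on MHC class I molecules with the help of the CD8 coreceptor, whose chains are encoded by Cd8a and Cd8b1. They kill with perforin and granzymes and secrete interferon gamma, which acts through transcription factors such as IRF1 to raise chemokines such as CXCL9, immunity-related GTPases, antigen presentation genes and the checkpoint ligand PD-L1 (Cd274). CTLA-4 is carried at high levels by regulatory T cells, which are marked by the transcription factor Foxp3.

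Total counts (in units of 1e6) were 70.1 and 56.0 in combination replicates A and B and 67.9 and 49.7 in depleted replicates A and B, within a range of 43.9 to 72.1 over the 20 libraries. The combination libraries were the most alike of the 10 pairs. The biological coefficient of variation, which is the spread of expression between libraries beyond counting noise, was 4.25% for them, against 20.8% to 47.0% in the 8 groups not compared here and 68.2% between the depleted libraries. They still differed by more than sampling noise (chi-square per degree of freedom 10.1). That measure cannot tell different tumors from 2 preparations of the same tumor. Of this group the paper mentions a single small tumor for flow cytometry and staining, and a single small tumor for a blot. Its legends, which do not single out this group, give at least 2 data points for the flow cytometry and at least 2 experiments for that blot. The libraries were kept as 2 samples, and their origin was not tested.

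Depleted replicate B stood apart from every other library by its fat tissue genes. Adipoq, which encodes the fat cell hormone adiponectin, reached 355 CPM (counts in a library scaled to 1e6) there, with 0.521 in depleted replicate A, 0 and 0.0183 in combination replicates A and B, and at most 3.03 in the other 16 libraries. The epithelial adhesion gene Epcam reached 218 CPM in depleted replicate B and 0.608 in depleted replicate A, and its highest level among the other 18 libraries was 0.566. Depleted replicate A held skeletal muscle RNA, with the muscle actin gene Acta1 at 114 CPM, against 8.84 in depleted replicate B and 0.648 and 0.365 in the combination libraries. Muscle genes varied widely elsewhere too, and Acta1 ranged from 0.338 to 1430 CPM in the other 16 libraries. Of the 2 pairs compared, the combination pair held less RNA of either tissue. Their part in the results below was not tested beyond the values given with and without depleted replicate B and with covariates for the adipocyte and muscle levels. The label describes the samples as head and neck cancer cells. The squamous keratin genes Krt5 (0 and 0 CPM) and Krt14 (0.0294 and 0) were at or near 0 in the combination libraries. They were low in the other 16 libraries too, at 0 to 1.68 CPM for Krt5 and 0 to 0.645 for Krt14. Krt5 and Krt14 were at 6.97 and 6.50 CPM in depleted replicate A, above those ranges, and at 0.740 and 0.275 in depleted replicate B.

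**Figure D1:**
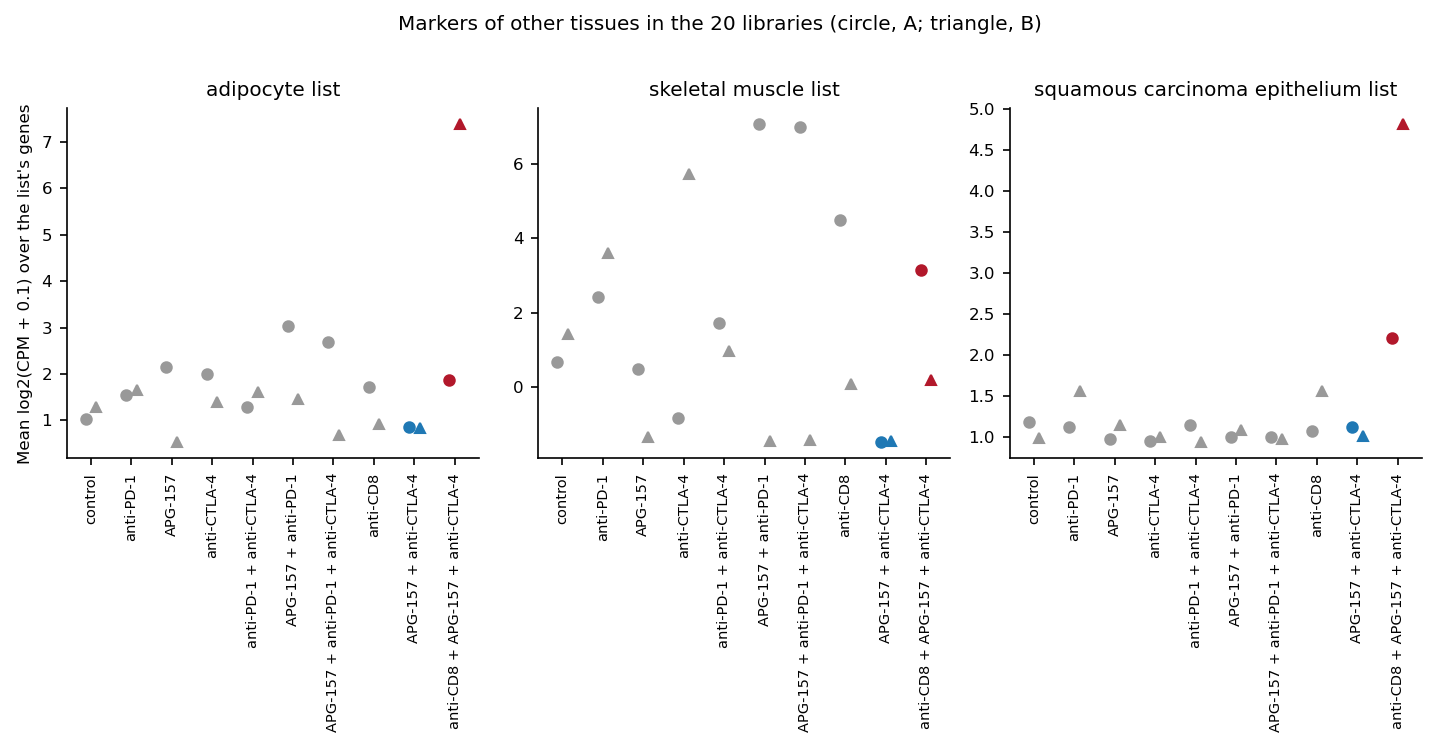
Mean log2(CPM + 0.1) over the adipocyte, skeletal muscle and squamous carcinoma epithelium lists (y axes) per library, for the 10 treatment groups (x axis), with circles for replicate A and triangles for replicate B; combination libraries are blue and depleted libraries red. Depleted replicate B stands at 7.37 on the adipocyte list, where the combination libraries stand at 0.85 and 0.84, and depleted replicate A at 3.15 on the muscle list, where they stand at -1.48 and -1.44.

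The targeted coreceptor was measured first. Cd8a stood at 11.9 CPM in both combination libraries and at 0.260 and 0.381 CPM in depleted replicates A and B. Cd8b1 stood at 4.28 and 4.33 CPM in the combination libraries and at 0.347 and 0.444 in the depleted libraries. Both depleted libraries lay far below both combination libraries for either chain, whichever foreign tissue they held, so the measured target went with the labels. Cd8a fell by 5.23 on the log2 scale (SE 1.53, adjusted p = 0.0385, edgeR quasi-likelihood test with Benjamini-Hochberg adjustment over 19567 genes). The difference of Cd8b1 was -3.44 (SE 1.24, adjusted p = 0.0670 in edgeR) and did not pass. DESeq2 called both genes (adjusted p = 0.000628 for Cd8a and 0.00770 for Cd8b1). Without depleted replicate B, the log2 fold changes were -5.50 for Cd8a and -3.62 for Cd8b1, and neither passed (adjusted p = 0.324 and 0.381 in edgeR). The Cd8a call was also lost without depleted replicate A (adjusted p = 0.103), combination replicate A (0.189) or combination replicate B (0.190). In bulk tumor RNA, fewer CD8+ cells and less Cd8a RNA per cell cannot be told apart. By staining of tumor sections, the paper reports that no CD8+ T cells were seen in the groups given the antibody.

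**Figure D2:**
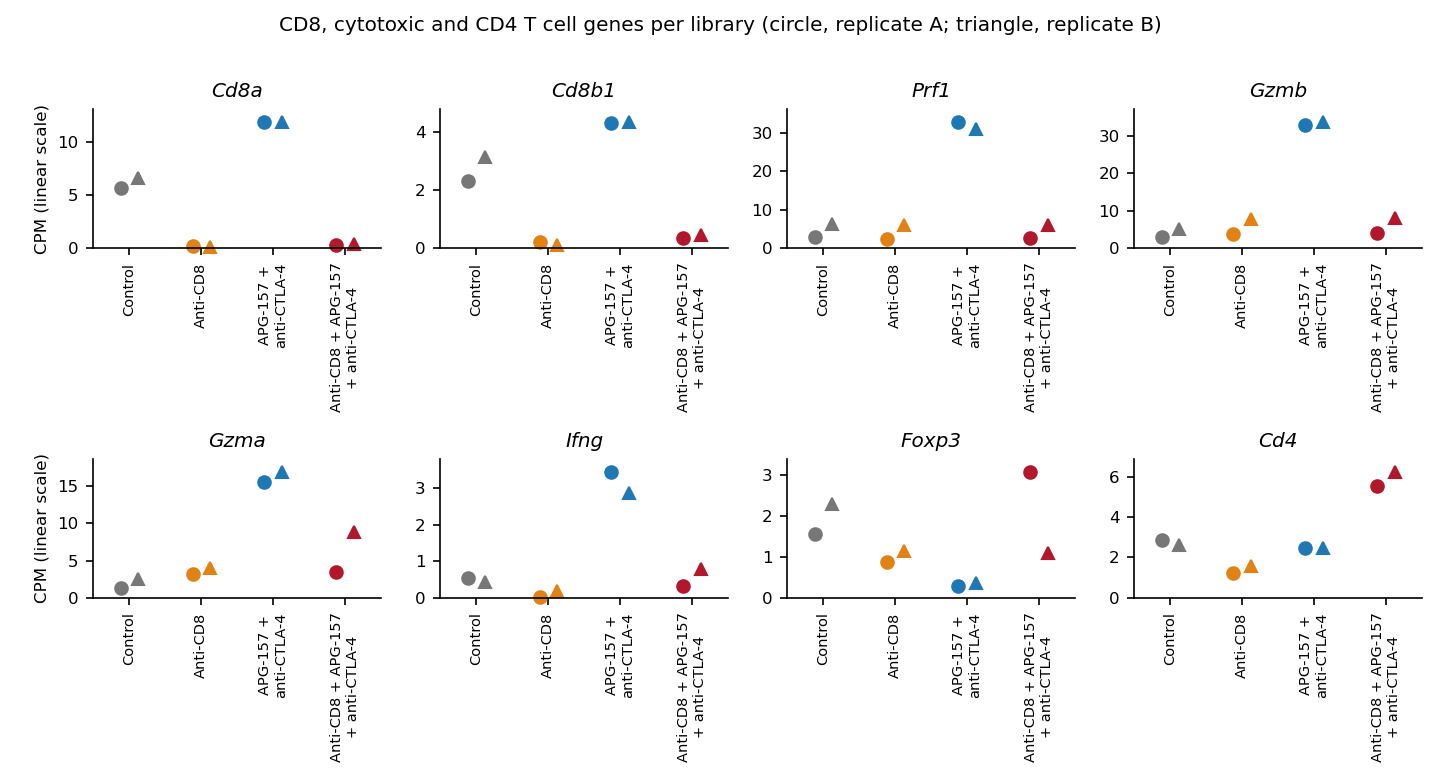
CPM on linear axes from 0 of CD8, cytotoxic and CD4 T cell genes in the control, anti-CD8, combination and depleted libraries (x axis), with circles for replicate A and triangles for replicate B. Cd8a is at 11.9 CPM in both combination libraries and at most 0.381 in the depleted ones, and Foxp3 and Cd4 are higher in both depleted libraries than in either combination library.

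Across the transcriptome, edgeR called 3722 of 19567 genes at an adjusted p under 0.05. Of all genes tested, 2121 (10.8%) were called higher and 1601 (8.18%) lower in the depleted libraries, and the median log2 fold change over all genes was 0.09. Both depleted libraries lay above both combination libraries in 6385 genes (32.6%) and below both in 6094 (31.1%), which are the shares to set beside each gene group below. The groups did not overlap in all 1601 genes called lower and in 1897 of the 2121 called higher.

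These calls rested on the agreement of the combination pair and on depleted replicate B. Without depleted replicate B, edgeR called 8 of 20303 genes, 3 higher (0.0148%) and 5 lower (0.0246%), and 7 of the 8 were among the 3722. With the adipocyte list level as a covariate 3 genes were called, and with the 2 combination libraries summed as 1 sample 2 genes were. The same 2 genes, the predicted genes Gm6505 and Gm43802, were the calls without combination replicate A and the calls without combination replicate B. Without depleted replicate A, 8939 genes were called. A fit on the 4 libraries alone called 0 genes in edgeR, with 4066 at an unadjusted p under 0.05, where the fit on all 20 libraries had 7487. DESeq2 called 5775. In the fit without depleted replicate B, the lone depleted library was assumed to vary like those of the other groups.

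**Figure D3:**
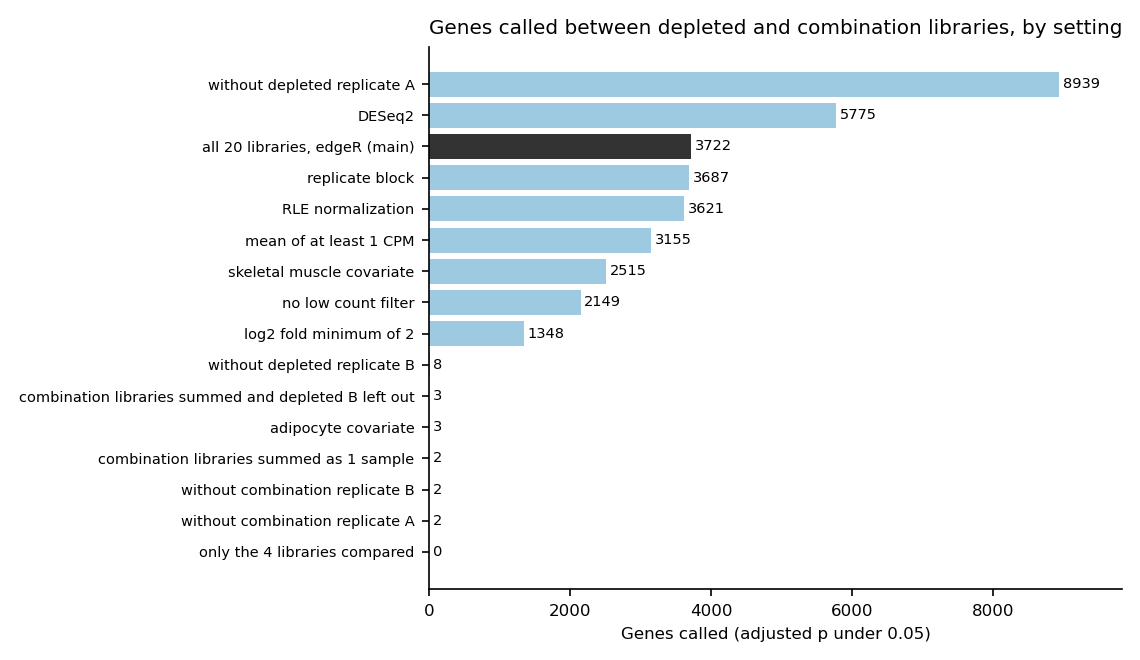
Number of genes called at an adjusted p under 0.05 between depleted and combination libraries (x axis, linear from 0) under each analysis setting (y axis), with the result on all 20 libraries in black. The count is 3722 on all 20 libraries and lies between 0 and 8 in a fit on the 4 libraries alone, without depleted replicate B, without either combination library, with the combination libraries summed or with the adipocyte covariate.

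The genes called both with and without depleted replicate B included 5 with an established name. Cd200, a surface glycoprotein that restrains myeloid cells through its receptor, stood at 14.0 and 15.1 CPM in combination replicates A and B and at 52.6 and 71.9 CPM in depleted replicates A and B. Both depleted libraries were more than 3 times as high as either combination library, and the combination libraries lay below the whole range of the other 16 libraries (29.6 to 58.8 CPM). Cd200 rose by 2.10 on the log2 scale (SE 0.22, edgeR adjusted p = 0.00255), and by 1.86 without depleted replicate B (adjusted p = 0.0133). Foxp3 stood at 0.280 and 0.365 CPM in the combination libraries, at 3.07 and 1.08 in the depleted libraries, and between 0.551 and 4.60 in the other 16. The groups did not overlap, and depleted replicate A was the higher of its pair. Foxp3 rose by 2.68 (SE 0.55, edgeR adjusted p = 0.0252) and by 3.24 without depleted replicate B (adjusted p = 0.0439). Ntng1, a membrane-anchored netrin, stood at 0.545 and 0.475 CPM in the combination and 3.81 and 2.01 in the depleted libraries, and rose by 2.51 (SE 0.41, edgeR adjusted p = 0.0252; 0.0316 without depleted replicate B).

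Lower in the depleted libraries were Gdnf and Hmga1. Gdnf, a neurotrophic growth factor, stood at 20.9 and 19.9 CPM in the combination libraries and at 6.48 and 3.66 in the depleted libraries. Hmga1, an architectural chromatin protein abundant in growing tumor cells, stood at 268 and 250 CPM in the combination and 132 and 65.5 in the depleted libraries. For both genes the combination libraries lay above the range of the other 16 libraries, which was 6.30 to 11.8 CPM for Gdnf and 152 to 208 for Hmga1. Gdnf fell by 2.01 on the log2 scale (SE 0.25, edgeR adjusted p = 0.00918; 0.0415 without depleted replicate B) and Hmga1 by 1.39 (SE 0.23, adjusted p = 0.0252; 0.0405). Of these 5 genes none was called without combination replicate A (adjusted p from 0.109 to 0.189 in edgeR) or without combination replicate B (0.0667 to 0.190). Gprc5a, a retinoic acid-induced orphan receptor, stood at 32.3 and 31.9 CPM in the combination and 16.3 and 16.6 in the depleted libraries. It fell by 0.96 (SE 0.12, edgeR adjusted p = 0.00918), and without depleted replicate B its adjusted p was 0.0624.

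**Figure D4:**
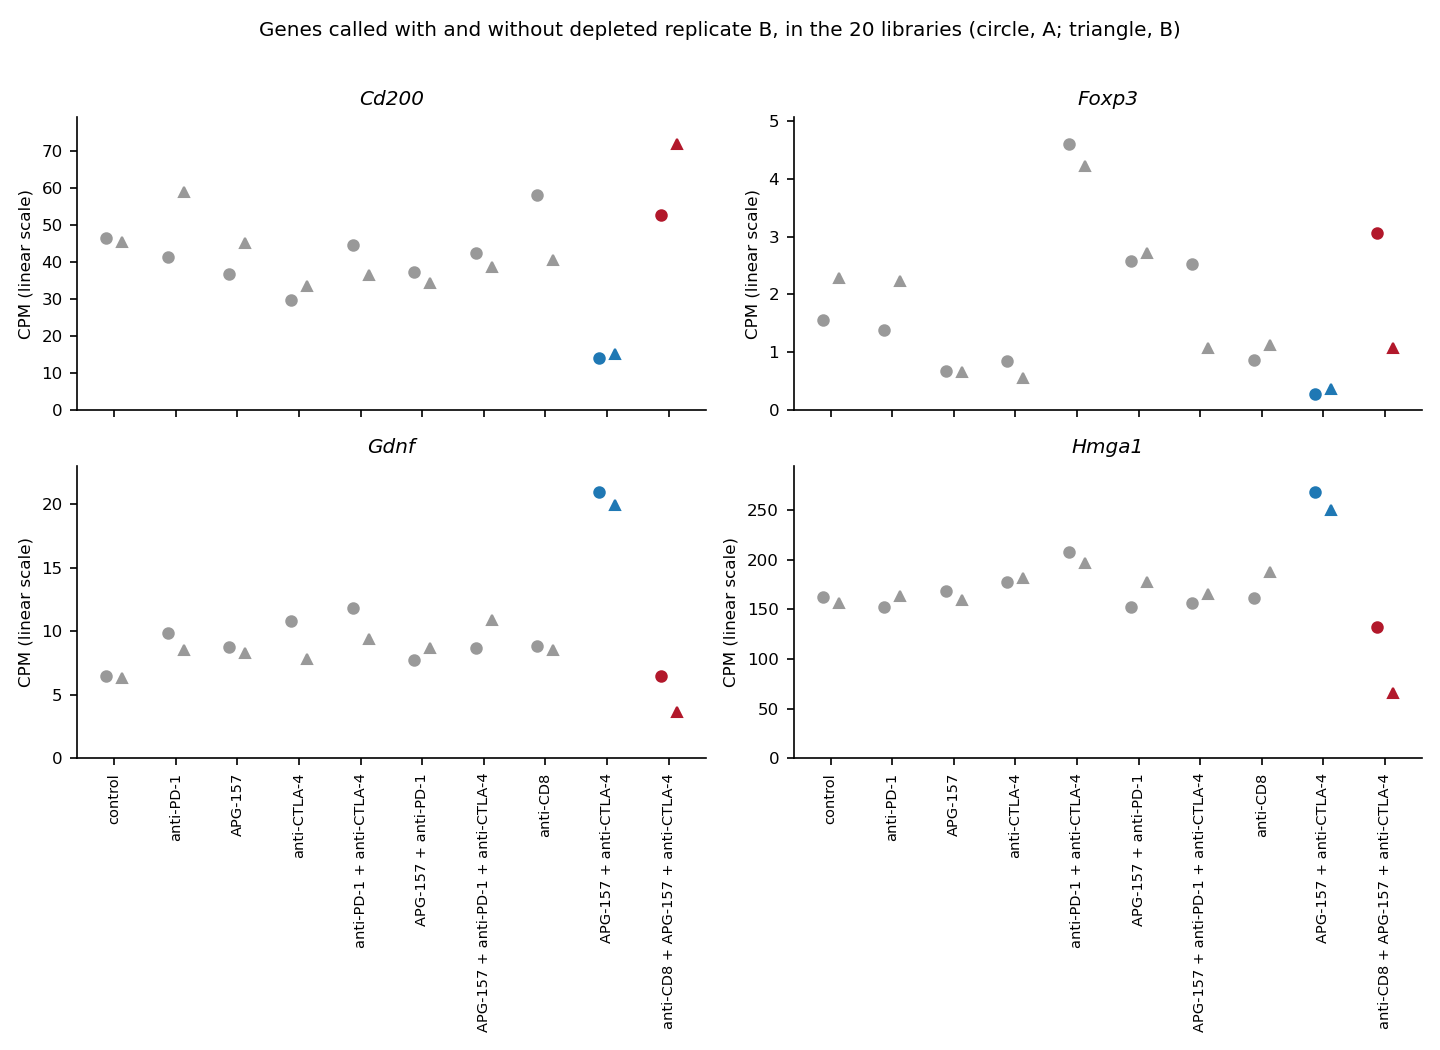
CPM on linear axes from 0 of Cd200, Foxp3, Gdnf and Hmga1 in the 20 libraries by treatment group (x axis), with circles for replicate A and triangles for replicate B; combination libraries are blue, depleted libraries red and the others grey. The combination libraries lie outside the range of the grey libraries in all 4 panels (for Gdnf at 20.9 and 19.9 CPM against 6.30 to 11.8), and the depleted libraries lie among the grey libraries or on the side away from the combination pair.

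In the 4 genes plotted, both combination libraries stood outside the range of the other 16. Of the depleted libraries, both did so for Hmga1, replicate B alone for Cd200 and Gdnf, and neither for Foxp3. Over all called genes the count was 1558 of 3722 (41.9%) for the combination pair, both of whose libraries lay beyond the range of the other 16, and 410 (11.0%) for the depleted pair. Over all 19567 genes tested the counts were 2850 (14.6%) and 737 (3.77%).

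The cytotoxic effector genes were lower in both depleted libraries in 22 of 24 cases, with 1 call. Prf1, which encodes the pore-forming protein perforin, stood at 32.8 and 31.0 CPM in the combination libraries and at 2.68 and 5.96 in the depleted libraries. Gzmb, the granzyme that activates caspases in target cells, stood at 33.0 and 33.7 CPM in the combination and 3.96 and 8.12 in the depleted libraries. For both genes the depleted levels lay close to those of the control libraries (Prf1 2.78 and 6.24, Gzmb 3.07 and 5.02 CPM). Prf1 fell by 2.89 on the log2 scale (SE 0.89, edgeR adjusted p = 0.0432), while the change of Gzmb was -2.47 (SE 0.89, adjusted p = 0.0675) and did not pass. DESeq2 called both genes (adjusted p = 0.00226 for Prf1 and 0.0104 for Gzmb). Gzma, a tryptase-like granzyme, stood at 15.6 and 16.9 CPM in the combination and 3.41 and 8.78 in the depleted libraries (log2 fold change -1.42, edgeR adjusted p = 0.138). Ifng, the gene of interferon gamma, stood at 3.46 and 2.87 CPM against 0.333 and 0.804 (-2.48, adjusted p = 0.231).

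Of 24 cytotoxic genes tested, 0 were called higher and 1, Prf1, lower, and 22 lay below both combination libraries in both depleted libraries. The exceptions were Ccl5 and Klrg1. The median log2 fold change of the list was -1.35, and -2.07 without depleted replicate B. As a mean of log2(CPM + 0.1) over its genes, the list stood at 2.80 and 2.81 in the combination libraries, 0.43 and 1.61 in the depleted, 0.24 and 1.58 in the control and 0.36 and 1.11 in the anti-CD8 libraries. The depleted libraries thus overlapped the control libraries on this list. The Prf1 call was lost without any 1 of the 4 libraries (edgeR adjusted p = 0.128 and 0.281 without depleted replicates A and B, 0.190 without either combination library).

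Genes of the T cell receptor and its signalling gave no call in edgeR. Cd3e, a chain of the T cell receptor complex, stood at 7.76 and 8.08 CPM in the combination and 3.86 and 3.66 in the depleted libraries (log2 fold change -1.07, edgeR adjusted p = 0.521). Trac, the receptor alpha constant segment, stood at 6.42 and 8.50 CPM against 5.18 and 4.88 (-0.57, adjusted p = 0.714). Il7r, the interleukin 7 receptor of naive and memory T cells, stood at 13.4 and 12.2 CPM against 3.95 and 2.35 (-2.02, adjusted p = 0.0730 in edgeR and 0.0239 in DESeq2). Of 25 genes in this list 0 were called in edgeR, 3 had an unadjusted p under 0.05 and 2 were called in DESeq2. Of the 25, 17 lay below and 4 above both combination libraries in both depleted libraries, and the median was -0.48. With anti-CD8 alone the median was -1.35 and all 25 were lower than in control by their fitted fold change.

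Among checkpoint and exhaustion genes, 2 of 14 fell, where 8.18% of all genes were called lower. Havcr2, which encodes the inhibitory receptor TIM-3, stood at 64.3 and 62.6 CPM in the combination and 33.5 and 19.3 in the depleted libraries, and Entpd1, the ectonucleotidase CD39, at 143 and 147 against 79.3 and 58.1. Both genes are also expressed by myeloid cells. Havcr2 fell by 1.26 on the log2 scale (SE 0.35, edgeR adjusted p = 0.0325) and Entpd1 by 1.08 (SE 0.18, adjusted p = 0.0252). Pdcd1, the gene of PD-1, stood at 4.59 and 4.68 CPM in the combination and 1.61 and 2.94 in the depleted libraries (-1.03, adjusted p = 0.583), and Lag3 at 3.68 and 3.22 against 2.05 and 3.51, with overlap. In all, 11 of the 14 lay below both combination libraries, and the list median was -0.83. Without depleted replicate B neither call remained (edgeR adjusted p = 0.327 and 0.174), nor did it without combination replicate A (0.189) or B (0.190).

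Natural killer receptors gave 0 calls among 15 genes in edgeR and in DESeq2, with 0 at an unadjusted p under 0.05, although 12 lay below both combination libraries. Klrk1, the activating receptor NKG2D that CD8+ T cells share, stood at 33.0 and 34.0 CPM in the combination and 7.25 and 14.9 in the depleted libraries (log2 fold change -1.60, adjusted p = 0.250). Ncr1, the natural killer receptor NKp46, stood at 5.18 and 4.99 CPM against 2.97 and 5.35, with overlap (-0.29, adjusted p = 0.717). Klrb1c, which encodes NK1.1, stood at 2.41 in both combination libraries and at 1.29 and 1.40 in the depleted libraries (-0.85, adjusted p = 0.347).

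Of 16 CD4 helper and regulatory T cell genes 3 were called higher and 0 lower. Cd4 stood at 2.44 and 2.45 CPM in the combination and 5.53 and 6.24 in the depleted libraries, above its control levels of 2.85 and 2.63, but the difference did not pass (log2 fold change 1.27, SE 0.99, edgeR adjusted p = 0.359). Besides Foxp3, 2 genes of this list of 16 were called higher and were picked out here after their values were seen. Ikzf2, the factor Helios of regulatory T cells, stood at 2.47 and 2.96 CPM against 6.87 and 24.3 (2.52, SE 0.70, adjusted p = 0.0327), with the highest level in the fat-rich depleted replicate B. Tnfrsf4, the costimulatory receptor OX40, stood at 0.456 and 0.530 CPM against 1.88 and 1.63 (1.83, SE 0.50, adjusted p = 0.0319). Ctla4 itself, the target of the antibody both groups received, stood at 1.31 and 0.859 CPM in the combination and 2.81 and 1.06 in the depleted libraries, with overlap (0.83, adjusted p = 0.414). Il2ra, the interleukin 2 receptor alpha chain, stood at 7.65 and 7.86 against 7.51 and 3.60 (-0.48, adjusted p = 0.668). The list level was 0.12 and 0.15 in the combination, 1.03 and 0.57 in the depleted, 0.38 and 0.23 in the control and -0.11 and -0.06 in the anti-CD8 libraries, and 8 of 16 genes lay above and 2 below both combination libraries. Without depleted replicate B the Ikzf2 and Tnfrsf4 calls were lost (edgeR adjusted p = 0.380 and 0.230). Without combination replicate A (0.189 to 0.197) or B (0.190 to 0.192) all 3 calls were lost.

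Interferon gamma response genes were lower with depletion in nearly every case and in both libraries, without a single call in edgeR. Irf1, a transcription factor that interferon gamma induces, stood at 281 and 270 CPM in the combination and 157 and 136 in the depleted libraries. Cxcl9, the chemokine that attracts T cells through CXCR3, stood at 417 and 429 CPM against 109 and 226. Cd274, the gene of PD-L1, stood at 59.5 and 60.0 CPM against 15.7 and 23.3, which is near its control levels of 17.7 and 10.7. None of these 3 genes overlapped between the groups. Their log2 fold changes were -0.91 (SE 0.50) for Irf1, -1.34 (1.23) for Cxcl9 and -1.61 (0.98) for Cd274, with edgeR adjusted p from 0.193 to 0.442. Nlrc5, the activator of MHC class I genes, came closest to the threshold, at 113 and 110 CPM against 48.0 and 46.4 (-1.25, SE 0.49, adjusted p = 0.0829).

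Of the 30 genes of this list, 0 were called higher or lower in edgeR and 2 had an unadjusted p under 0.05, and 27 lay below and 0 above both combination libraries. DESeq2 called 1 of the 30, Nlrc5 (adjusted p = 0.0345). The list median was -1.19, and -1.50 without depleted replicate B. The list level was 6.59 and 6.60 in the combination libraries, 5.10 and 5.72 in the depleted, 4.91 and 4.92 in the control and 3.74 and 3.81 in the anti-CD8 libraries. Both depleted libraries thus stood below the combination and above control and anti-CD8. In the other 16 libraries the level ran from 3.46 to 7.43, so the list varied widely between treatments.

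The promoters of several of these genes carry sequence elements that bind the factors activated by interferon, and they are shown to place the expression values beside the DNA. RefSeq promoter windows (250 bases before to 50 after the start, GRCm38.p6, a different build from the GRCm39 of the counts) were found for 19 of the 30 genes. The interferon gamma-activated site (GAS) was searched as TTCNNNGAA and the element bound by interferon regulatory factors as GAAA, any 2 bases and GAAA again (ISRE), on both strands and with overlaps allowed. GAS was present in 9 of 19 windows (47.4%) and in 8.47% of the windows of all 27025 genes. ISRE was present in 11 (57.9%) and in 3.49% of all. Both were present in 6 windows (31.6%; Gbp5, Gbp7, Igtp, Irgm2, Tgtp1 and Tgtp2) and in 0.514% of all. For comparison, GAS was in 22.2% and ISRE in 16.7% of 18 windows of the cytotoxic list, and in 0% and 5.56% of 18 windows of the matrix list. The windows of Cxcl9 and Cd274 hold neither sequence. Shown are Irf1 (chr11:53769764-53770063, plus strand), as a core gene of the pathway with a GAS match that starts 90 bases before the start site, and Igtp (chr11:58199306-58199605, plus), Irgm2 (chr11:58214727-58215026, plus) and Gbp5 (chr3:142496684-142496983, plus), as GTPase genes that hold both. Capitals mark the GAS and ISRE matches, 5' to 3' on the gene's strand:
Irf1: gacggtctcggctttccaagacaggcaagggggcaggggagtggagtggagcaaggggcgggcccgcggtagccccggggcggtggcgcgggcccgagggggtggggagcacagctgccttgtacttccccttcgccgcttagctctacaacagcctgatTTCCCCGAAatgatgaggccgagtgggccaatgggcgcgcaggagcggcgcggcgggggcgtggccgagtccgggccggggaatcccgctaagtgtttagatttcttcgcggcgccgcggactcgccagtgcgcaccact
Igtp: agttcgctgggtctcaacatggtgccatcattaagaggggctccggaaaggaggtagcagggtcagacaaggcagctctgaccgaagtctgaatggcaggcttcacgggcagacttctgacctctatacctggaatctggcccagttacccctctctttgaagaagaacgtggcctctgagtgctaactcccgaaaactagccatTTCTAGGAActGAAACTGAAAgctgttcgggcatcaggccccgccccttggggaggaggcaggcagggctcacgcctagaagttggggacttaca
Irgm2: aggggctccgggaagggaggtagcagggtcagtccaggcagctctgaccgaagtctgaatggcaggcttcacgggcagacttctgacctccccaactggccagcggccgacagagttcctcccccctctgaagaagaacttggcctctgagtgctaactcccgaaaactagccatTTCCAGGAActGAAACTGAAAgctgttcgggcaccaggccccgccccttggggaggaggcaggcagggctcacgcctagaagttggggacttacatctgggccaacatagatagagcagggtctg
Gbp5: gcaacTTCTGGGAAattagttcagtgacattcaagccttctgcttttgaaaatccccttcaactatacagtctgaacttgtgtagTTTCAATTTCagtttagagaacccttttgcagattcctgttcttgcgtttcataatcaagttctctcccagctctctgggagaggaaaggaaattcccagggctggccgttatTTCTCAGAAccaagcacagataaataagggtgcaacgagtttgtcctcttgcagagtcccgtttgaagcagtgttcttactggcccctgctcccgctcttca

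In Igtp and Irgm2 the GAS and ISRE matches stand next to each other, starting 45 and 34 bases before the start site in Igtp and 75 and 64 in Irgm2. In Gbp5 they lie apart, with GAS matches at 245 and 52 bases and an ISRE match at 165 bases before it. These 3 genes were chosen for their promoters after their values were seen. Igtp, an immunity-related GTPase, stood at 258 and 254 CPM in the combination and 80.6 and 114 in the depleted libraries. Irgm2, of the same family, stood at 158 and 156 CPM against 46.3 and 54.9, and Gbp5, a guanylate-binding protein of inflammasome assembly, at 83.6 and 80.0 against 27.0 and 39.4. All were lower in both depleted libraries, and none passed (log2 fold changes -1.39, -1.63 and -1.30, edgeR adjusted p = 0.298, 0.167 and 0.299). A sequence match is a description of the window and does not show binding.

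Antigen presentation genes gave no call in edgeR. The class I heavy chain gene H2-K1 stood at 2776 and 2658 CPM in the combination and 2242 and 1864 in the depleted libraries, and its partner B2m at 3168 and 3240 against 2436 and 2157. Tap1, the peptide transporter, stood at 213 and 200 CPM against 105 and 112. The 3 genes were lower in both depleted libraries but did not pass (log2 fold changes -0.40, -0.48 and -0.93, edgeR adjusted p = 0.477, 0.245 and 0.285). The class II gene H2-Aa overlapped, at 619 and 606 CPM against 430 and 833. Of 19 genes 0 were called in edgeR, 1 was called in DESeq2 and 1 had an unadjusted p under 0.05, and 14 lay below both combination libraries, with a list median of -0.40.

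The type I interferon list of 25 genes held 3 that fell and 1 that rose, where 8.18% of all genes were called lower and 10.8% higher. Siglec1, the macrophage lectin CD169, stood at 169 and 154 CPM in the combination and 88.9 and 37.3 in the depleted libraries (log2 fold change -1.35, SE 0.35, edgeR adjusted p = 0.0298). Picked out after their values were seen were the antiviral genes Rsad2, at 43.2 and 44.7 CPM against 15.2 and 13.4 (-1.61, adjusted p = 0.0375), and Ifit2, at 100 and 103 against 54.1 and 29.9 (-1.28, adjusted p = 0.0299). Ifi27l2a rose (1.71, adjusted p = 0.0466), at 31.7 and 28.5 CPM against 37.1 and 160, where depleted replicate B alone was far above the others. Isg15, a ubiquitin-like interferon product, overlapped at 18.6 and 18.1 against 17.1 and 22.5. None of the 4 was called without depleted replicate B (edgeR adjusted p from 0.281 to 0.754), and none was called without combination replicate A (from 0.189) or B (from 0.190). Without depleted replicate A the call of 1 was lost (up to 0.0509). The list median was -0.51, where anti-CD8 alone gave 0.19.

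In the inflammatory and STAT3 target lists the calls were in the lower direction. Tnf, the cytokine TNF, stood at 10.8 and 10.6 CPM in the combination and 4.05 and 2.07 in the depleted libraries and fell by 1.81 on the log2 scale (SE 0.34, edgeR adjusted p = 0.0252). Its combination levels were above the range of the other 16 libraries (3.03 to 10.2). Ptgs2, the prostaglandin synthase COX-2, at 33.0 and 32.5 CPM against 10.8 and 10.5 (-1.62, adjusted p = 0.0252), and the adhesion molecule gene Icam1, at 48.6 and 50.1 against 26.1 and 22.8 (-1.01, adjusted p = 0.0420), fell as well and were picked out after their values were seen. Nfkbia, the inhibitor that NF-kB induces, was higher in both depleted libraries, at 116 and 112 CPM against 120 and 174, and did not pass (0.37, adjusted p = 0.253). Il1b overlapped, with 4.80 and 4.93 CPM against 3.07 and 5.24. Over all genes tested, 8.18% were called lower. Of 21 genes of the NF-kB list 3 fell, 0 rose, and 14 lay below both combination libraries. Of 17 STAT3 targets 4 fell, 0 rose and 14 lay below. Socs3, the feedback inhibitor of STAT3 signalling, stood at 68.4 and 64.3 CPM against 40.7 and 33.3 (-0.84, adjusted p = 0.0339), and the AP-1 gene Fosl1 at 89.8 and 86.0 against 49.1 and 35.6 (-1.05, adjusted p = 0.0252). No gene of the 2 lists was called without depleted replicate B (edgeR adjusted p from 0.204 to 0.397 for the calls), nor was any without combination replicate A (from 0.189) or B (from 0.190).

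The study also blotted proteins in these 4 groups, and 13 of their genes were followed. Nfkb1, the p50 subunit of NF-kB, stood at 182 and 179 CPM in the combination and 128 and 83.9 in the depleted libraries and fell (log2 fold change -0.77, SE 0.18, edgeR adjusted p = 0.0269). Its partner Rela, at 67.8 and 68.4 CPM against 60.5 and 48.1, was at -0.33 (SE 0.11, adjusted p = 0.0509). Stat3 stood at 172 and 163 CPM against 139 and 141 (-0.26, adjusted p = 0.333). Irf1, Cd274 and Il1b, given above, were blotted too and were not called. Of the autophagy genes on the blots, Atg7 fell, at 33.0 and 28.2 CPM against 25.0 and 19.1 (-0.47, SE 0.14, adjusted p = 0.0390), while Map1lc3b, at 97.1 and 97.3 against 111 and 102, and Becn1, at 92.0 and 98.5 against 97.7 and 104, were at 0.14 and 0.08 (adjusted p = 0.372 and 0.661). Cdh1, which encodes E-cadherin, was called higher at 6.87 and 7.18 CPM against 5.15 and 224 (4.02, adjusted p = 0.0408). That call rested on depleted replicate B, and without it the log2 fold change was -0.45 (adjusted p = 0.776). Snai1, a repressor of E-cadherin, overlapped at 17.4 and 15.6 against 18.7 and 8.59. The Nfkb1 and Atg7 calls were lost without depleted replicate B too (edgeR adjusted p = 0.263 and 0.376), and all 3 without combination replicate A (0.189 to 0.232) or B (0.190 to 0.207).

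Apoptosis genes and targets of the tumor suppressor p53, which form 1 list, were lower in both depleted libraries in 16 of 23 cases. Cdkn1a, the cell cycle inhibitor p21, stood at 234 and 217 CPM in the combination and 125 and 103 in the depleted libraries and fell by 0.98 on the log2 scale (SE 0.25, edgeR adjusted p = 0.0294). Sesn2, a stress-responsive regulator of mTORC1, stood at 47.4 and 43.3 CPM against 21.1 and 13.6 and fell by 1.38 (SE 0.23, adjusted p = 0.0252). For both genes the control libraries (Cdkn1a 154 and 182, Sesn2 30.8 and 25.0 CPM) lay between the combination and the depleted levels. Of the 23 genes 7 fell and 0 rose. None of the 7 was called without depleted replicate B (edgeR adjusted p from 0.170 to 0.363), combination replicate A (0.189 to 0.191) or combination replicate B (0.190 to 0.193). In the separate autophagy list 2 of 16 genes fell and 0 rose, with a median of 0.02.

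Macrophage and monocyte genes were called in both directions, 3 of 25 higher and 3 lower, which are shares near those over all genes. Itgam, the integrin CD11b of myeloid cells, stood at 446 CPM in both combination libraries and at 243 and 145 in the depleted libraries, and Cd68, a lysosomal macrophage protein, at 327 and 315 against 216 and 106. Itgam fell by 1.20 on the log2 scale (SE 0.30, edgeR adjusted p = 0.0283) and Cd68 by 1.00 (SE 0.28, adjusted p = 0.0327). The general macrophage markers Adgre1 (220 and 226 CPM against 187 and 62.1) and Csf1r (385 and 369 against 403 and 138) had their lowest level of the 4 in depleted replicate B, and they did not pass (adjusted p = 0.151 and 0.365). Lyve1, a hyaluronan receptor of lymphatic vessels and of some macrophages, stood at 1.77 and 1.26 CPM in the combination and 33.3 and 18.0 in the depleted libraries, against 6.24 to 78.6 in the other 16. It rose by 4.08 (SE 0.92, edgeR adjusted p = 0.0259). Cd163, the haemoglobin scavenger receptor, at 1.78 and 2.10 CPM against 12.2 and 4.65 (2.12, adjusted p = 0.0444), rose too, and the Fc receptor gene Fcgr1, at 156 and 162 against 90.6 and 65.2 (-1.03, adjusted p = 0.0455), fell. Retnla, a gene of alternatively activated macrophages and of fat tissue, was called higher, with 0 counts in both combination libraries and 0.839 and 36.5 CPM in the depleted libraries. These last 3 genes were picked out after their values were seen. Of the 25 genes 15 lay below both combination libraries. None of the 6 was called without depleted replicate B (edgeR adjusted p from 0.227 to 0.384), and none without combination replicate A (from 0.189) or B (from 0.190). Without depleted replicate A 5 of the 6 were called.

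Dendritic cell genes were also called in both directions, in shares near those over all genes. Xcr1, the chemokine receptor of cross-presenting dendritic cells, stood at 8.01 and 8.04 CPM in the combination and 2.72 and 1.90 in the depleted libraries and fell by 1.79 on the log2 scale (SE 0.53, edgeR adjusted p = 0.0379). Cadm1, an adhesion molecule of the same cells and of many others, stood at 218 and 219 CPM against 145 and 118 (-0.74, adjusted p = 0.0356). Clec9a, their receptor for dead cells, was lower in both depleted libraries at 2.78 and 3.36 against 1.09 and 1.78 but did not pass (-1.10, adjusted p = 0.263). Cd209a, a lectin of monocyte-derived dendritic cells, rose from 0.589 and 0.932 CPM to 4.70 and 1.44 (2.02, adjusted p = 0.0473). Of 24 dendritic cell genes 2 rose and 3 fell, and 10 lay above and 7 below both combination libraries. The other that rose, Cd24a, also an epithelial gene, was at 812 CPM in depleted replicate B and at 4.73 in depleted replicate A. No call remained without depleted replicate B (edgeR adjusted p from 0.194 to 0.981), combination replicate A (from 0.190) or B (from 0.190), and 1 was lost without depleted replicate A (0.291).

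Neutrophil genes were called in both directions. The B cell calls, 2 of 23, were higher, a share near the 10.8% called higher over all genes. The inflammatory receptor gene Trem1 stood at 9.82 and 9.56 CPM in the combination and 1.77 and 1.40 in the depleted libraries and fell by 2.61 on the log2 scale (SE 0.83, edgeR adjusted p = 0.0461). The 3 of 15 neutrophil genes that rose (Lcn2, and Mmp8 and Hdc, which are named for the count after their values were seen) did so through depleted replicate B, where Lcn2 reached 323 CPM against 0.217 in depleted replicate A. Cd79b, a chain of the B cell receptor, stood at 0.191 and 0.219 CPM in the combination and 1.42 and 2.92 in the depleted libraries and rose by 3.39 (SE 0.89, edgeR adjusted p = 0.0298). Jchain, the joining chain of secreted antibody, stood at 0.765 and 1.01 CPM against 2.36 and 5.50 (2.15, adjusted p = 0.0848). Of 23 B cell genes 2 rose, 0 fell, and 15 lay above and 0 below both combination libraries, with a median of 2.30 and of 1.04 without depleted replicate B. The calls of both lists were lost without depleted replicate B (edgeR adjusted p from 0.261 to 0.988) and without combination replicate A (from 0.189) or B (from 0.190), and that of Trem1 also without depleted replicate A (0.0699).

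Of 30 extracellular matrix genes 14 were called higher and 0 lower, several of them at like levels in both depleted libraries. Mgp, the matrix Gla protein that inhibits calcification, stood at 6.50 and 7.05 CPM in the combination and 86.7 and 114 in the depleted libraries, with 90.4 and 133 in the control libraries. Sparc, a collagen-binding matrix protein, stood at 672 and 670 CPM against 1329 and 1427, and Col6a2, a chain of collagen VI, at 74.4 and 67.8 against 302 and 330. For all 3 the combination libraries lay below the whole range of the other 16 and the depleted libraries within it. Mgp rose by 3.89 on the log2 scale (SE 0.55), Sparc by 1.04 (SE 0.20) and Col6a2 by 2.15 (SE 0.31), each with an edgeR adjusted p of 0.0252. The fibrillar collagen genes Col1a1 (577 and 529 CPM against 972 and 1144) and Col3a1 (1131 and 1086 against 2043 and 1682) rose by 0.94 (adjusted p = 0.0422) and 0.75 (0.0366).

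Of the 30 matrix genes 19 lay above and 2 below both combination libraries. The list median was 0.93, and 0.92 without depleted replicate B. The list level was 5.64 and 5.62 in the combination libraries, 7.05 and 7.32 in the depleted, 7.08 and 7.07 in the control and 7.46 and 7.00 in the anti-CD8 libraries, so the combination pair was the one apart. Single members were set by depleted replicate B, such as the proteoglycan gene Lum, named after its values were seen, at 7.83 CPM in depleted replicate A and 169 in depleted replicate B. None of the 14 was called without depleted replicate B (edgeR adjusted p from 0.148 to 0.440), and the same held without combination replicate A (0.189 to 0.194) or B (0.190 to 0.219). Without depleted replicate A 13 of the 14 were called.

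Vessel and stromal genes were also called, mostly higher. Acta2, the smooth muscle actin of myofibroblasts and mural cells, stood at 119 and 113 CPM in the combination and 242 and 645 in the depleted libraries and rose by 1.93 on the log2 scale (SE 0.55, edgeR adjusted p = 0.0356). The mural receptor gene Pdgfrb, at 49.1 and 44.1 CPM against 166 and 70.2, did not pass (1.34, adjusted p = 0.0508). Pecam1, the endothelial adhesion molecule CD31, stood at 31.1 and 31.7 CPM against 66.6 and 79.5 and rose by 1.22 (SE 0.31, adjusted p = 0.0291). Mcam, the adhesion molecule CD146 of endothelial and mural cells, stood at 27.3 and 25.7 CPM against 62.7 and 89.6 and rose by 1.52 (SE 0.25, adjusted p = 0.0252). The combination libraries again lay below the range of the other 16 for Acta2, Pdgfrb, Pecam1 and Mcam. Cdh5, the endothelial cadherin, at 34.9 and 34.5 CPM against 65.0 and 54.5, and Kdr, the VEGF receptor, at 19.2 and 20.2 against 28.9 and 34.6, were higher in both depleted libraries and did not pass (adjusted p = 0.0920 and 0.0565). Of 22 endothelial genes 15 rose, 0 fell and 19 lay above both combination libraries, and of 20 fibroblast and mural genes 6 rose, 1 fell and 11 lay above. Fat tissue is itself rich in vessels and fibroblasts. The endothelial median was 1.53 and, without the fat-rich depleted replicate B, 1.09, and the fibroblast median 1.43 and 0.34. The list level of the endothelial genes was 2.31 and 2.32 in the combination, 3.39 and 4.35 in the depleted and 3.01 and 3.45 in the control libraries. No gene of these lists was called without depleted replicate B (edgeR adjusted p from 0.164 to 0.798 for the calls), combination replicate A (from 0.189) or B (from 0.190).

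Among the 4 libraries, the levels of the adipocyte and squamous epithelial lists were highest in depleted replicate B and that of the muscle list in depleted replicate A. The members of the squamous list did not all follow its level. The squamous keratin genes Krt5 and Krt14 were higher in depleted replicate A (Krt14 at 6.50 CPM against 0.275 in depleted replicate B). The high level in depleted replicate B came from epithelial genes such as Epcam (218 CPM against 0.608 in depleted replicate A) and Elf3 (282 against 0.130). Of 28 adipocyte genes 17 were called higher and 0 lower, all 17 with their level set by depleted replicate B. Fabp4, the fatty acid carrier of fat cells and capillaries, stood at 17.3 and 16.8 CPM in the combination, 72.0 in depleted replicate A and 1944 in depleted replicate B. Cfd, the fat-derived complement factor D, stood at 0.0147 and 0.0183 CPM, 4.02 and 1352 in the same order, and the lipid droplet gene Plin1 at 0.280, 0.292, 1.07 and 136. The adipocyte median was 6.54 with depleted replicate B and 0.74 without it, where 0 of the 17 were called (edgeR adjusted p from 0.238 to 0.994). They were not called without combination replicate A or B either (from 0.189 and 0.190). Of 21 squamous epithelial genes 11 rose and 1 fell, with a median of 4.29 and, without depleted replicate B, of 1.03. These 12 calls were lost without depleted replicate B (edgeR adjusted p from 0.178 to 0.923), combination replicate A (from 0.189) or B (from 0.190). Of 40 muscle genes 0 were called in edgeR, where 1 had an unadjusted p under 0.05, and 19 were called higher in DESeq2, with 27 above both combination libraries. Myh4, a fast muscle myosin, stood at 0 and 0.128 CPM in the combination, 43.4 in depleted replicate A and 0 in depleted replicate B. The lymphoid chemokine gene Ccl21a stood at 0 in both combination libraries, 0.130 in depleted replicate A and 60.9 in depleted replicate B.

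Tumor cell growth genes gave 0 calls in edgeR among 28 proliferation genes, with 8 at an unadjusted p under 0.05 and 4 called lower in DESeq2, and with 17 below both combination libraries and 28 of 28 below both in depleted replicate B. Mki67, the proliferation antigen Ki-67, stood at 555 and 575 CPM in the combination and 438 and 226 in the depleted libraries (log2 fold change -0.77, adjusted p = 0.0680), and Top2a, the DNA-untangling enzyme of dividing cells, at 519 and 552 against 442 and 231 (-0.67, adjusted p = 0.112). The list level was 6.90 in both combination libraries, 6.84 in depleted replicate A and 5.87 in depleted replicate B, so depleted replicate B carried most of the difference. Hypoxia and glycolysis genes were lower in both depleted libraries to a like extent, with levels of 7.50 and 7.47 against 6.99 and 6.97. The depleted levels lay between those of the control libraries (7.32 and 6.56), and the other 16 libraries ran from 6.34 to 8.05. The calls among the 21 genes of this list were a share near the 8.18% of all genes called lower. Of those 21 genes 2 fell (Pfkfb4 and, named after its values were seen, Pkm), 0 rose and 17 lay below both combination libraries, and the calls were lost without depleted replicate B (edgeR adjusted p = 0.388 and 0.397) and without combination replicate A (0.200 and 0.220) or B (0.190 and 0.193).

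**Figure D5:**
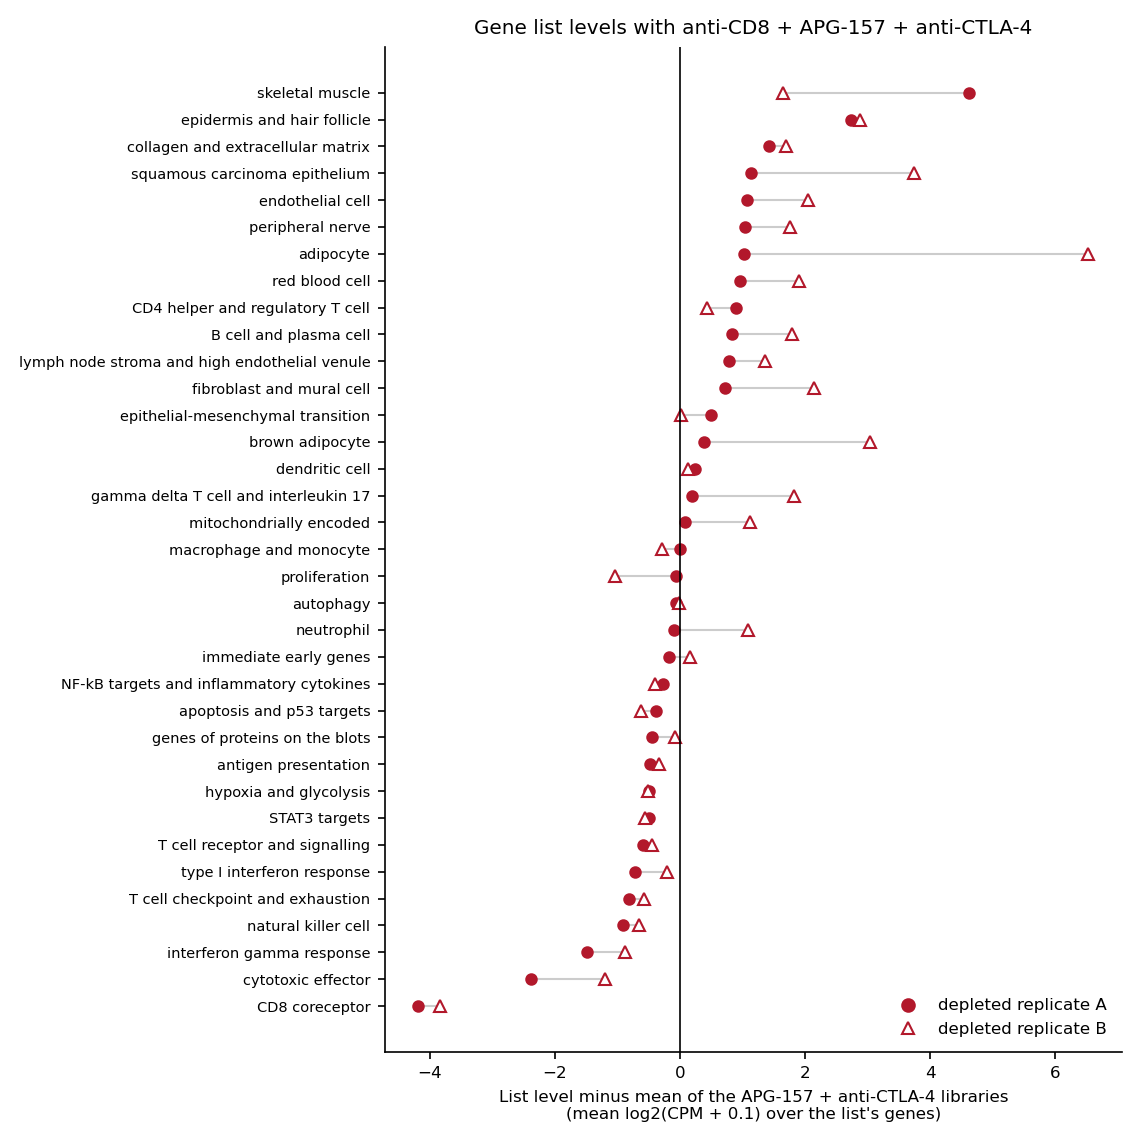
Level of each of the 35 gene lists (y axis) in depleted replicate A (circle) and depleted replicate B (triangle), as the difference from the mean of the 2 combination libraries in mean log2(CPM + 0.1) (x axis). CD8 coreceptor, cytotoxic and interferon gamma lists lie to the left of 0 in both libraries, matrix and endothelial lists to the right in both, and on the adipocyte list depleted replicates A and B lie far apart, at 1.02 and 6.53.

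Coreceptor RNA was low as well where the same antibody was given without the combination. Cd8a stood at 5.66 and 6.67 CPM in the control libraries and at 0.144 and 0.121 in the anti-CD8 libraries, and Cd8b1 at 2.30 and 3.11 against 0.215 and 0.107. The groups did not overlap for either gene. Even so 0 of 19567 genes (0%) were called in edgeR, 233 had an unadjusted p under 0.05, and DESeq2 called 6. The cytotoxic list, at -1.35 under the combination, had a median of -0.34 with anti-CD8 alone, and the matrix list, at 0.93, one of 0.14. The interferon gamma list had medians of -1.19 and -0.90. Whether these list differences depended on the combination was tested gene by gene only. The interaction of the 2 depletion effects was called in edgeR for 2 genes (0.0102%), Gm6505 and Gm43802, with 5424 at an unadjusted p under 0.05, and in DESeq2 for 2647. Without depleted replicate A, edgeR called 5932. In the 7 fits without depleted replicate B or without a combination, control or anti-CD8 library, Gm6505 was called each time and Gm43802 was not.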

How the data were processed

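The authors trimmed reads with Trimmomatic 0.39, estimated transcripts with Salmon (1.5.0 in the submitters' notes; the methods name a later patch release) on GENCODE vM27 and GRCm39, and summed them to genes. The deposited unit is an expected count per gene (54309 genes, 51484 with a symbol, 20 libraries), not scaled for depth. A second deposited table holds log2 normalized values of the same libraries, and its 20 columns were not used. Expected counts were rounded. Genes were kept by filterByExpr (minimum count 10, minimum total 15), libraries scaled by TMM, and a robust quasi-likelihood model with a term for each of the 10 groups was fitted to all 20 libraries in edgeR 4.0.16 (limma 3.58.1, R 4.3.3; common biological coefficient of variation 38.7%). A call means a p under 0.05 after Benjamini-Hochberg adjustment, with no fold minimum. SE is the log2 fold change over the root of the F statistic. CPM uses TMM-scaled totals. For a group at 0 counts, a fold is bounded by setting 3 counts as the group's sum, which covers counting error only.

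The 35 gene lists (689 genes, 682 matched, 633 tested), the comparison and the tests were chosen with earlier results of these data known. Lists were described by counts and medians, without a set test. Named are the target, the core genes of each list, the genes of the blotted proteins, the member with the smallest p in each direction of a list, up to 10 called genes in each direction with the smallest p (with and without depleted replicate B), and up to 5 by the interaction test. Others are marked in the text as picked after their values were seen. A few genes the rule covers are not reported here.

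Letters A and B were checked for pairing. The A minus B deviations of the depleted and combination groups correlated at -0.015 across genes, and over the 45 pairs of groups the correlation ran from -0.381 to 0.705, with 13 over 0.1. The sample descriptions number the A libraries S1 to S10 and the B libraries S11 to S20, with the treatments in the same order. What these numbers stand for is not given. Not every pair exceeded 0.1, which does not settle whether the letters mark a shared block, and they were treated as names.

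Alternatives were RLE factors, no filter, a mean of at least 1 CPM, the replicate letter as a block, adipocyte or skeletal muscle list level as a covariate, only the groups compared, each library left out, the combination libraries summed, a log2 fold minimum of 2, a pseudocount of 1 instead of 0.1 CPM for list levels, and DESeq2 1.42.0. Summing with depleted replicate B left out was added after seeing the data. The code was tested on simulated counts. Promoters were searched in RefSeq windows of GRCm38.p6 (first entry per gene). No genome of the build of the counts was used.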

Additional observations from a re-analysis of the deposited data

Results flagged for a closer look

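The interaction term in edgeR was called for 2 predicted genes, whose difference with anti-CD8 was not alike under the combination and in the control setting. Depletion may be confounded with the experiment, so this difference cannot be assigned to the antibody. As given above, the call of Gm43802 was lost without depleted replicate B and without any combination, control or anti-CD8 library. It was lost with the combination libraries summed too. Gm6505 (ENSMUSG00000070522.5) had 87 and 84 counts in combination replicates A and B, 0 and 0 in the depleted libraries, 96 and 45 in the control and 93 and 106 in the anti-CD8 libraries. Its interaction was -9.55 on the log2 scale (adjusted p = 0.00582). Against a floor of 3 counts over the group, it was at least 54.1-fold lower in the depleted than in the combination libraries, and the other 16 libraries held 17 to 106 counts. Gm43802 (ENSMUSG00000105338.2) had 922 and 703 counts in the combination libraries, 0 and 0 in the depleted, 233 and 126 in the control and 124 and 202 in the anti-CD8 libraries. Its interaction was -12.10 (adjusted p = 0.0330), and it was at least 514-fold lower in the depleted libraries. In the other 16 libraries it ran from 0 to 672 counts, and 2 of them were at 0. Another predicted gene called lower without depleted replicate B, Gm8979, had 351 and 536 counts in the combination and 0 and 88 in the depleted libraries. Fitted log2 values of genes with 0 counts depend on the prior count. Reads of predicted genes and pseudogenes can be shared with near-identical copies, and whether that holds here was not tested. Groups of 2 libraries are too small for the test of a single outlying sample.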

How the results depend on the processing

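The count of 3722 genes moved to 2149 with no filter, 1348 at a log2 fold minimum of 2 (1314 higher, 34 lower), 5775 in DESeq2, 3 with the adipocyte covariate, 0 with only the groups compared, 2 with the combination libraries summed and 3 with depleted replicate B left out besides. With 1 library left out it ranged from 2 to 8939. It was 3621 with RLE factors (2199 higher, 1422 lower), 3155 at a mean of at least 1 CPM, 2515 with the muscle covariate and 3687 with the replicate block, which kept 3376 of the calls. The letters were not treated as pairs, and the block is only a further fit. Anti-CD8 alone gave 15 calls with only the groups compared, 6 in DESeq2 and 0 to 1 with 1 library left out. The interaction gave 43 with no filter, 5 with only the groups compared, 1 with the combination summed, 2647 in DESeq2 and 1 to 5932 with 1 library left out. Some fitted log2 fold changes changed sign with 1 library left out, where they ranged from -0.065 to 1.37 for Ctla4, -0.78 to 0.046 for Ncr1, -0.66 to 0.081 for Il1b and -4.71 to 13.25 for Myh4, in each of which the sign changed without depleted replicate A. The sign changed without depleted replicate B for H2-Aa (-0.51 to 0.42), Isg15 (-0.10 to 0.27), Csf1r (-1.48 to 0.095), Snai1 (-0.97 to 0.17), Cdh1 (-0.45 to 4.96) and Ighm (-0.84 to 0.25). Under the adipocyte covariate, and with summing and without depleted replicate B together, in this order, these were at -1.18 and -0.52 (H2-Aa), -0.52 and -0.11 (Isg15), 0.11 and 0.082 (Csf1r), 0.26 and 0.16 (Snai1), -0.17 and -0.45 (Cdh1) and 0.10 and 0.24 (Ighm). H2-Aa was also at -0.14 with the muscle covariate. The causes were not tested. With 2 libraries a group, a gene that did not pass is not shown to be unchanged.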

Other observations

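Other gene groups gave the following values, described without a test of the group. Over all genes tested, 10.8% were called higher and 8.18% lower. Red blood cell genes were higher in depleted replicates A and B, with list levels of 2.12 and 3.07 against 1.12 and 1.22 in the combination libraries and 2.07 and 3.81 in control, and 0 of 7 were called in edgeR, where 0 had an unadjusted p under 0.05, and 1 in DESeq2. Mitochondrially encoded genes stood at 10.46 in depleted replicate A and 11.49 in depleted replicate B against 10.39 and 10.36, and 2 of 13 rose. Of 17 immediate early genes 1 rose, the matricellular Ccn1 (27.0 and 26.4 CPM in the combination and 60.2 and 45.4 in the depleted libraries), and 1 fell, the stress factor Atf3 (32.6 and 30.8 against 17.1 and 10.7). Of 16 epithelial-mesenchymal transition genes 2 rose and 3 fell, among them Tgfb2, a TGF-beta ligand, from 5.61 and 5.90 to 22.0 and 18.1 CPM (log2 fold change 1.80, adjusted p = 0.0252 in edgeR). Of 21 epidermis and hair follicle genes only 5 passed the low count filter, and 4 of these 5 rose. Among the 4 were Krt15 (0 and 0 CPM in the combination, 1.48 and 1.92 in the depleted libraries) and Krt1 (0 and 0 against 1.20 and 0.275). The share of 4 in 5 thus depends on which genes the filter kept. Peripheral nerve genes rose in 3 of 11 and brown adipocyte genes in 1 of 10. Of the lymph node stroma list 1 of 10 rose, Lyve1, which is also on the macrophage list, and 1 fell. These shares of 1 in 10 are near those over all genes. Of the gamma delta T cell list 1 of 7 rose, Sox13, at 1.13 CPM in depleted replicate A and 27.8 in depleted replicate B. Without depleted replicate B none of these was called.

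In depleted replicate B further genes stood far above the other libraries, picked out after their values were seen. Ovgp1, a secreted glycoprotein of the oviduct, reached 1255 CPM there, 1.17 in depleted replicate A and at most 1.37 in the other 18 libraries, and Ltf, the iron-binding lactoferrin of milk and neutrophil granules, reached 563, 0.0868 and at most 1.68. Lars2 reached 17174 CPM in depleted replicate B, 3313 in depleted replicate A and at most 3139 in the other 18 libraries. The gene ENSMUSG00000119584, which has no symbol in the table, took 11.5% of the counts of depleted replicate B and 2.23% of those of depleted replicate A. Its share was at most 2.58% in the other 18 libraries. What these levels mean for RNA quality was not tested.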
